A study of Mus musculus with 6 samples.

Results

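Interleukin receptor genes are described here in endothelial cells sorted from mouse liver. The members are the 42 of 39179 genes in the deposited table whose symbol reads Il, digits, r and further letters or digits, or is Il6st. The symbol rule also takes in Il1rn, which encodes a secreted antagonist and not a receptor. RNA sequencing was done on 3 biological replicates per diet, 6 libraries in all, and the labels do not say whether a replicate is 1 animal or a pool. The control_iron mice were wild-type 129S6/SvEvTac males given a purified diet with 37 ppm iron as ferric citrate. The high_iron mice, of the same strain and sex, ate a diet with 10000 ppm iron as carbonyl iron. All were put on the diet at 3 weeks of age, stayed on it for 4 weeks and were taken at 7 weeks. Cells were sorted as CD31+ and CD146+, and negative for CD45, lineage markers, MHCII and CD64.

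Interleukin receptors are built from chains that bind a cytokine and chains that carry the signal into the cell, and several chains are shared between cytokines. Most class I and class II chains pass the signal to JAK kinases and STAT factors, whereas chains of the IL-1 and IL-17 receptor families recruit adaptors that lead to NF-kappa-B. A few chains bind a cytokine without signalling in the usual way and are known as decoys. Liver sinusoidal endothelium lies in direct contact with the blood and with liver macrophages, both of which carry interleukins to it.

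Of the 42 genes, 17 were expressed, defined as a CPM of at least 1 in 3 or more libraries. CPM is the deposited expression unit, in which a gene's reads are divided by the library size after scaling. Each of the 17 reached that level in all 6 libraries, and none passed through the libraries of a single diet. The expressed genes were Il6st, Il13ra1, Il27ra, Il10rb, Il3ra, Il4ra, Il1r1, Il13ra2, Il17rc, Il2rg, Il11ra1, Il15ra, Il17ra, Il6ra, Il1rap, Il17rd and Il20rb, in falling order of level per length. Of the other 25, 3 had a CPM of at least 1 in 2 libraries, 1 in a single library and 21 in none. Il20rb, with 1.36 to 4.69 CPM, lay just inside the limit, and Il12rb2, with 0.615 to 1.99 CPM, just outside it.

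Libraries held 12963510 to 21663543 reads in genes, so a floor of 3 reads corresponded to 0.139 to 0.231 CPM, which covers counting error only. Endothelial markers were abundant, with a summed level over 10 genes of 17452 to 19322 CPM in control_iron and 16756 to 17409 CPM in high_iron libraries. The high_iron sums all lay below the control_iron sums, by a narrow margin. Of the 10 genes 2 had a positive log2 fold change, and the list median was -0.19. None had an adjusted p below 0.05 by limma and 1 did by DESeq2, beside 1.02% and 3.27% of all genes. Mcam, which encodes the sort marker CD146, was low at 7.49 to 27.5 CPM. Macrophage markers differed between the diets. The summed level of 12 Kupffer cell and macrophage genes was 58.9, 159 and 84.2 CPM in control_iron replicates 1 to 3 and 444, 236 and 321 CPM in high_iron replicates 1 to 3. None of the 12 was at 0 in every library.

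Il13ra2 was the gene that differed between the diets, and its start region is printed for that reason. Beside it are those of Il13ra1 and Il4ra, the chains of the signalling receptor for IL-13, which missed the threshold. IL-13 binds Il13ra1, which pairs with the Il4ra chain to signal through STAT6, and it binds Il13ra2 with high affinity as a decoy. Each sequence spans 250 bases before to 50 bases after the start of a RefSeq transcript on GRCm38.p6. Capitals mark matches to any of 4 motifs searched on both strands: TTCNNNGAA and TTCNNNNGAA, both bound by STAT factors, TGACNNNGC, the core of the antioxidant response element, and TGANTCA, the AP-1 site.
Il13ra2, chrX:147429143-147429442, minus strand: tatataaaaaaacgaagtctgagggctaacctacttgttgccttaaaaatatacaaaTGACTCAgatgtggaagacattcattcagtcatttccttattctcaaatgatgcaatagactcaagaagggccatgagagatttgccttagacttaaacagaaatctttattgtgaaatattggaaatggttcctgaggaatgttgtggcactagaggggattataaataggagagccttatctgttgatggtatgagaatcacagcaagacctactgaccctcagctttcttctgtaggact
Il13ra1, chrX:36111858-36112157, plus strand: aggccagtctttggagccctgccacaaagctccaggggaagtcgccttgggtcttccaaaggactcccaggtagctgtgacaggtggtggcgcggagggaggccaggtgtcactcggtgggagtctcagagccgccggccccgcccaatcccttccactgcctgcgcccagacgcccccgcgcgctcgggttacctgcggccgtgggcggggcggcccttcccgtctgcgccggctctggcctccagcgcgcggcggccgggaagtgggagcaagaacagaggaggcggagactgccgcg
Il4ra, chr7:125552021-125552320, plus strand: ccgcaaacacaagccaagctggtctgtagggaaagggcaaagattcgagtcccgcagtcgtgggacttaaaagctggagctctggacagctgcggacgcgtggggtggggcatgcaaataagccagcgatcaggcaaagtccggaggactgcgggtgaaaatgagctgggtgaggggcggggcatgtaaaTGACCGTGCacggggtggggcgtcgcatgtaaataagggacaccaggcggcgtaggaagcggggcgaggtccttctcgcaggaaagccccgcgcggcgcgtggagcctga

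The 3 regions differed in base composition. That of Il13ra2 was 37.7% G or C and held 1 CpG, that of Il13ra1 71.0% with 28 CpG and that of Il4ra 62.0% with 25 CpG. Over all 32851 such regions in the table the medians were 52.7% and 7 CpG. The Il13ra2 region held an AP-1 match, present in 7.81% of all regions, and the Il4ra region an antioxidant response element match, present in 12.4%. Neither STAT motif, present in 8.30% and 6.95% of all regions, was found in these 3 windows. The table held regions for 35 of the 42 genes. The 17 regions of expressed genes came from 14 of these genes and had a median of 14 CpG. The 26 regions of genes not expressed had a median of 5, a description over regions, of which some share a gene.

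Il13ra2 mRNA was lower in every high_iron library. It stood at 62.0, 62.8 and 62.6 CPM in control_iron replicates 1 to 3, from 1194, 1352 and 1100 reads. In high_iron replicates 1 to 3 it stood at 27.9, 19.6 and 21.7 CPM, from 544, 332 and 282 reads. The control_iron libraries lay within 1 CPM of each other and the highest high_iron library was below them all. The group means were 62.5 ± 0.402 and 23.1 ± 4.34 CPM (SD, n = 3 per group), 2.71-fold lower on the high-iron diet. Its log2 fold change on the log2(CPM + 1) scale was -1.41 ± 0.16 (SE), with a 95% interval from -1.78 to -1.05 and an adjusted p of 0.0038 (limma, Benjamini-Hochberg over all 12980 genes tested). By p it ranked 24th of the 12980 and was 4th among genes with lower levels. In bulk RNA of a sorted population, fewer cells that express the gene and less RNA per cell cannot be told apart.

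**Figure D1:**
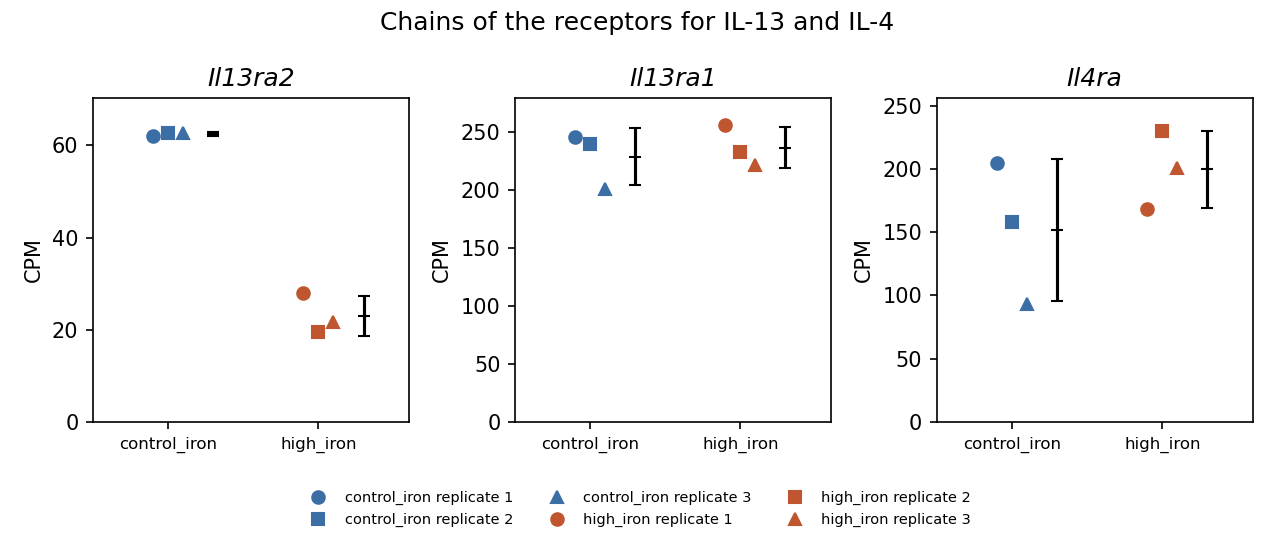
Level of Il13ra2, Il13ra1 and Il4ra in CPM (y axes, from 0) in the 3 control_iron and 3 high_iron libraries; symbols mark replicates, and bars show mean ± SD. Il13ra2 lies near 62 CPM in control_iron and between 19.6 and 27.9 CPM in high_iron libraries, while the groups overlap for the other chains.

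The Il13ra2 gene (ENSMUSG00000031289) lies on chromosome X from 147383476 to 147429192 on the minus strand of GRCm38 (mm10). GENCODE M21 gives it 14 merged exons and a longest coding sequence of 1149 bases, against 1272 bases for Il13ra1. No exon of another gene overlaps its exons in that annotation, and no transcript of another gene matched at least 50% of its length at 95% identity. The SD among its control_iron libraries was smaller than the 1.80 CPM that counting alone would give for these read numbers, while the SE of limma also draws on the spread of other genes. Stellate cell and fibroblast markers, a list of 7 genes, summed to between 46.2 and 382 CPM within control_iron and between 64.8 and 295 CPM within high_iron libraries. None of these genes passed the threshold, and the part of such cells in the values of Il13ra2 was not tested.

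Il13ra1, the signalling partner for IL-13, was the more abundant of the IL-13 binding chains. It measured 246, 239 and 201 CPM in control_iron and 256, 233 and 221 CPM in high_iron replicates 1 to 3, and the groups overlapped. Its log2 fold change was 0.05 ± 0.13 (SE), with a 95% interval from -0.25 to 0.35. It missed the threshold (limma adjusted p = 0.89), and its sign turned without control_iron replicate 3 or high_iron replicate 1. Il4ra, which forms the type II receptor with Il13ra1, measured 205, 158 and 93.2 CPM in control_iron and 169, 230 and 201 CPM in high_iron libraries. Control_iron replicate 3 was the lowest of the 6. The log2 fold change of Il4ra was 0.45 ± 0.26 (SE; 95% interval from -0.12 to 1.02; limma adjusted p = 0.51). Without that replicate it was 0.14, and without control_iron replicate 1 it was 0.70.

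Per length, in RPKM (CPM per 1000 bases of gene), Il13ra2 stood at 0.379, 0.393 and 0.469 of the level of Il13ra1 in control_iron replicates 1 to 3. In high_iron replicates 1 to 3 the ratio was 0.164, 0.126 and 0.147. The mean ratio was thus 0.414 ± 0.0483 in control_iron and 0.146 ± 0.0188 in high_iron libraries (SD, n = 3). All 3 high_iron ratios were below the lowest control_iron ratio. The ratio was given no test, since the fall of Il13ra2 was known when it was chosen.

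Over the 17 expressed genes, Il13ra2 was the single one that passed the threshold of adjusted p below 0.05, and none was called higher. Over all genes tested 1.02% were called, 0.832% as higher and 0.193% as lower. The same gene alone was called by edgeR (0.924% of all genes called) and by DESeq2 (3.27%) on reads recovered from the table. The median log2 fold change was -0.03 over the 17 genes and -0.003 over all genes tested, and 7 of the 17 were positive. Groups did not overlap for 1 gene in each direction, Il6ra higher and Il13ra2 lower, beside 17.9% of all genes tested. An unadjusted p under 0.05 was reached by Il13ra2, Il2rg and Il6ra, beside 12.1% of all genes.

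**Figure D2:**
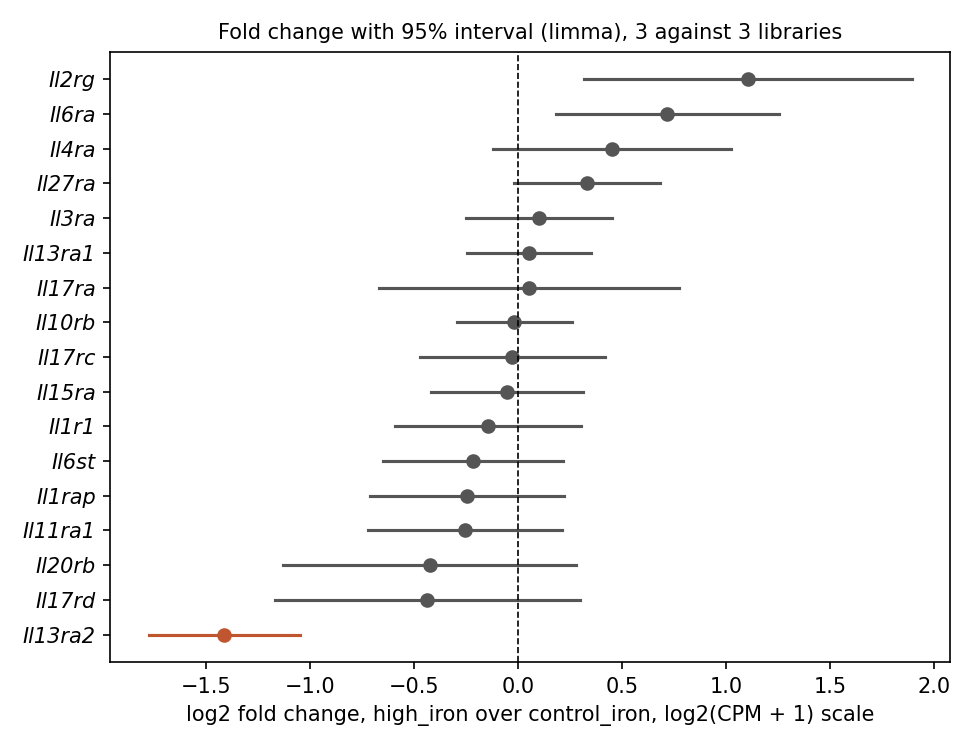
Log2 fold change of high_iron over control_iron for the 17 expressed genes (x axis, log2(CPM + 1) scale; points are limma estimates, lines 95% intervals). Il13ra2, in orange, is the gene with adjusted p below 0.05, and the dashed line marks the median of all genes tested, -0.003.

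For 11 of the 16 genes that missed the threshold, the 95% interval lay within a log2 change of 1 in either direction. Such a limit bounds the size of a change and does not show that levels were the same. Il2rg, Il6ra, Il4ra, Il17rd and Il20rb had wider or more shifted intervals.

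Il6st, which encodes gp130, the signalling chain shared by receptors for IL-6, IL-11, IL-27, LIF and oncostatin M, was the most abundant per length. It made up between 24.9% and 33.4% of the summed RPKM of the 42 genes, depending on the library. In CPM it measured 1899, 1391 and 1457 in control_iron and 1197, 1679 and 1217 in high_iron replicates 1 to 3, and the groups overlapped. The log2 fold change was -0.22 ± 0.19 (SE; 95% interval from -0.65 to 0.21; limma adjusted p = 0.66). It was -0.08 without control_iron replicate 1 and -0.38 without high_iron replicate 2, the ends of its range with a library removed. Il27ra, the chain that pairs with gp130 to bind IL-27, measured 166, 136 and 112 CPM in control_iron and 162, 171 and 182 CPM in high_iron libraries. Control_iron replicate 1 lay within the high_iron range. Its log2 fold change of 0.33 ± 0.16 (SE) missed the threshold (limma adjusted p = 0.44). Without control_iron replicate 3 it was 0.19.

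Il6ra, the chain that binds IL-6, was low per length, at 0.933 RPKM on average against 131 for Il6st. It measured 1.77, 2.23 and 2.28 CPM in control_iron and 3.03, 4.66 and 4.69 CPM in high_iron replicates 1 to 3. Every high_iron library was above every control_iron library, as for 9.46% of all genes tested. From 34 to 79 reads per library, the log2 fold change was 0.72 ± 0.24 (SE; 95% interval from 0.18 to 1.25), and it missed the threshold (limma adjusted p = 0.26). Hepatocytes and leukocytes are known to express Il6ra. Hepatocyte markers, 6 genes, summed to between 178 and 709 CPM in control_iron and between 402 and 756 CPM in high_iron libraries, and the summed macrophage markers were higher in the high_iron libraries; their part in these values was not tested.

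Il11ra1, which binds IL-11, measured 33.3 ± 5.0 and 28.1 ± 6.84 CPM (SD, n = 3). A transcript of Gm13305 matches 99.0% of the Il11ra1 transcript at 95% identity or more, so its reads are uncertain. The near relative Il11ra2, with a longest coding sequence of 1296 bases like that of Il11ra1, was listed at 0 in every library. How reads that match more than 1 gene were counted is not given, so that 0 is uncertain too. Il31ra, whose gene lies 9.81 kb from Il6st, reached at most 0.171 CPM. In this family of 6 genes, 4 were expressed, with log2 fold changes from -0.26 to 0.72, and none passed the threshold.

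**Figure D3:**
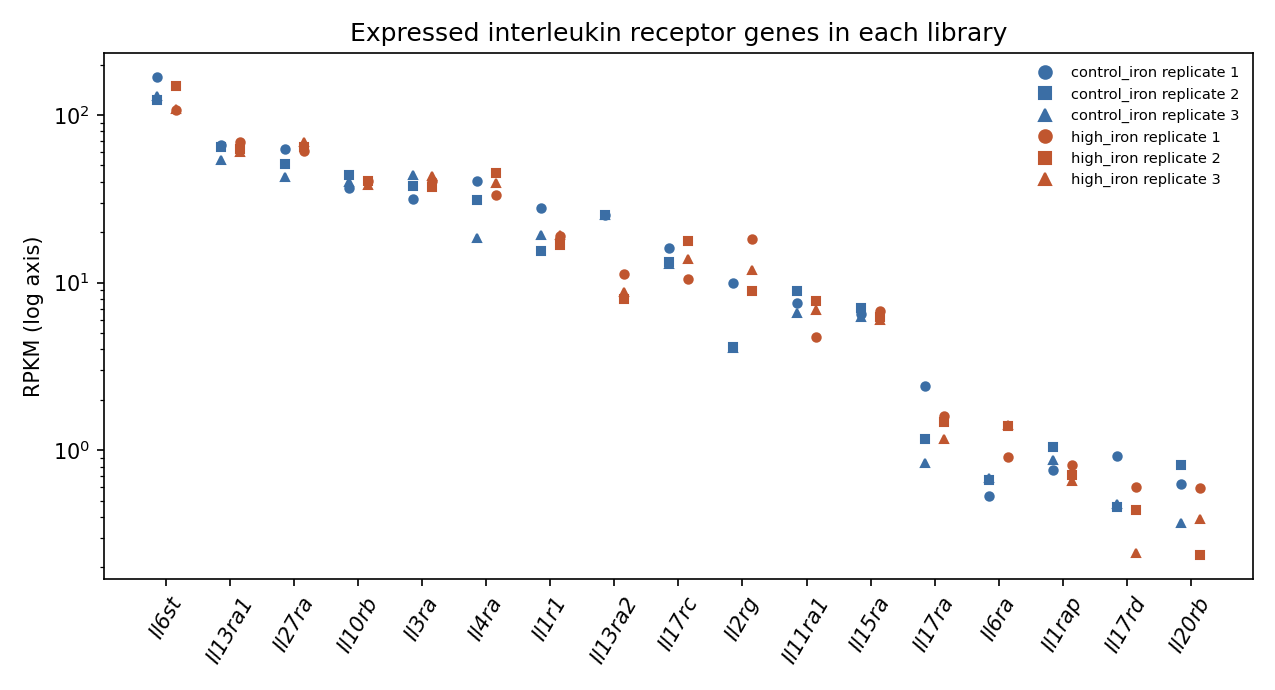
RPKM of the 17 expressed interleukin receptor genes (log y axis, genes in falling order of mean RPKM) in each of the 6 libraries; colours mark the diet and symbols the replicate. Il6st stands highest, and for Il13ra2 the high_iron libraries lie below the control_iron libraries.

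Il2rg encodes the common gamma chain, which receptors for IL-2, IL-4, IL-7, IL-9, IL-15 and IL-21 share and which is known from lymphocytes and myeloid cells. It measured 21.7, 9.01 and 8.88 CPM in control_iron and 39.7, 19.4 and 25.9 CPM in high_iron replicates 1 to 3. Control_iron replicate 1 lay above high_iron replicate 2, so the groups overlapped. The log2 fold change was 1.10 ± 0.35 (SE; 95% interval from 0.31 to 1.89; limma adjusted p = 0.23). Without control_iron replicate 1 it was 1.5 and passed the threshold (limma adjusted p = 0.030), while leaving out any other library gave an adjusted p from 0.29 to 0.57. Exons of Gm20489, a gene model on the same strand, cover 30.5% of the exonic length of Il2rg, so reads of the pair may be mixed.

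Of the chains that join the common gamma chain, Il4ra, described above, and Il15ra were expressed. Il15ra, which holds IL-15 at the cell surface and presents it to lymphocytes, measured 18.0 ± 1.22 and 17.3 ± 1.05 CPM (SD, n = 3), with a log2 fold change of -0.06 (95% interval from -0.42 to 0.31). Il2ra, whose gene lies 12.1 kb from that of Il15ra, reached at most 0.231 CPM. Il2rb stayed under 1 CPM and Il21r at most 1.18 CPM, while Il7r and Il9r stayed at or below 0.285 CPM.

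Leukocyte marker lists differed in how they moved with diet. Among the 12 macrophage markers 11 were tested, each with a higher mean in high_iron libraries (median log2 fold change 1.73). Csf1r, Marco and Clec4f passed the threshold, where 0.832% of all genes tested were called higher. Csf1r, the receptor for macrophage growth factor, measured 2.34, 5.90 and 4.73 CPM in control_iron and 32.6, 20.2 and 20.2 CPM in high_iron libraries. Leaving out control_iron replicates 1 to 3 in turn gave 4, 6 and 1 such genes in place of 3, and leaving out high_iron replicates 1 to 3 gave 1, 1 and 0. By edgeR 2 of the 11 macrophage markers passed and by DESeq2 8, beside 0.924% and 3.27% of all genes. All 11 had an unadjusted p under 0.05 (limma), beside 12.1% of all genes. Groups did not overlap for 9 of the 11, all higher in high_iron libraries, beside 9.46% of all genes tested. Ptprc, which encodes CD45, measured 1.77, 0.604 and 2.68 CPM in control_iron and 7.60, 4.13 and 4.23 CPM in high_iron libraries (limma adjusted p = 0.15). Of 5 B cell markers, 3 were tested and Ighm passed (limma adjusted p = 0.045). It missed the threshold whichever of the 6 libraries was removed (limma adjusted p from 0.053 to 0.24). By edgeR none of the 3 passed, and by DESeq2 2 did. All 3 had an unadjusted p under 0.05 (limma) and were higher without overlap, beside 12.1% and 9.46% of all genes. The summed level of the 5 B cell markers was 2.93 to 6.09 CPM in control_iron and 10.4 to 16.4 CPM in high_iron libraries. Of 9 T and NK cell markers Lck alone was tested, and Cd3e, Cd3d, Cd3g and Trac stayed at or below 0.354 CPM. Lck was higher in every high_iron library, as for 9.46% of all genes tested, and missed the threshold (limma adjusted p = 0.22). These 9 markers summed to 6.49 to 9.98 CPM in control_iron and 13.5 to 16.9 CPM in high_iron libraries, without overlap. With Lck alone inside the limit for expression, that sum says little about the rest of the list. The summed markers of neutrophils and monocytes overlapped between the diets, at 1.95 to 4.73 CPM in control_iron and 3.83 to 17.2 CPM in high_iron libraries. Those of mast cells and basophils overlapped too, at 285 to 823 CPM and 372 to 494 CPM, and neither list had a gene that passed. Of the 5 mast cell and basophil markers Kit alone was tested. It made up nearly all of their sum, which thus describes Kit and not the list. The part of leukocytes in the values of Il2rg was not tested.

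Il10ra and Il18rap, also known from leukocytes, were below the limit for expression. Il10ra, the ligand-binding chain for IL-10, had 5, 5 and 2 reads in control_iron and 22, 8 and 17 reads in high_iron replicates 1 to 3, or 0.114 to 0.260 against 0.472 to 1.31 CPM. Il18rap, the accessory chain for IL-18, had 0, 0 and 3 reads in control_iron and 8, 5 and 6 reads in high_iron libraries. For both, every high_iron library was above every control_iron library, as for 3.31% of the 10999 genes above 0 that missed the limit (6.97% in either direction). Fitted without the limit, neither passed the threshold (limma adjusted p = 0.25 for Il10ra and 0.18 for Il18rap), where 0.142% of all genes did. Il1rn, the IL-1 receptor antagonist, measured 0.883, 0.418 and 0.228 CPM in control_iron and 2.62, 0.766 and 1.46 CPM in high_iron libraries, with overlapping groups (limma adjusted p = 0.48 without the limit). These 3 were the genes below the limit with an unadjusted p under 0.05, beside 6.27% of all such genes.

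**Figure D4:**
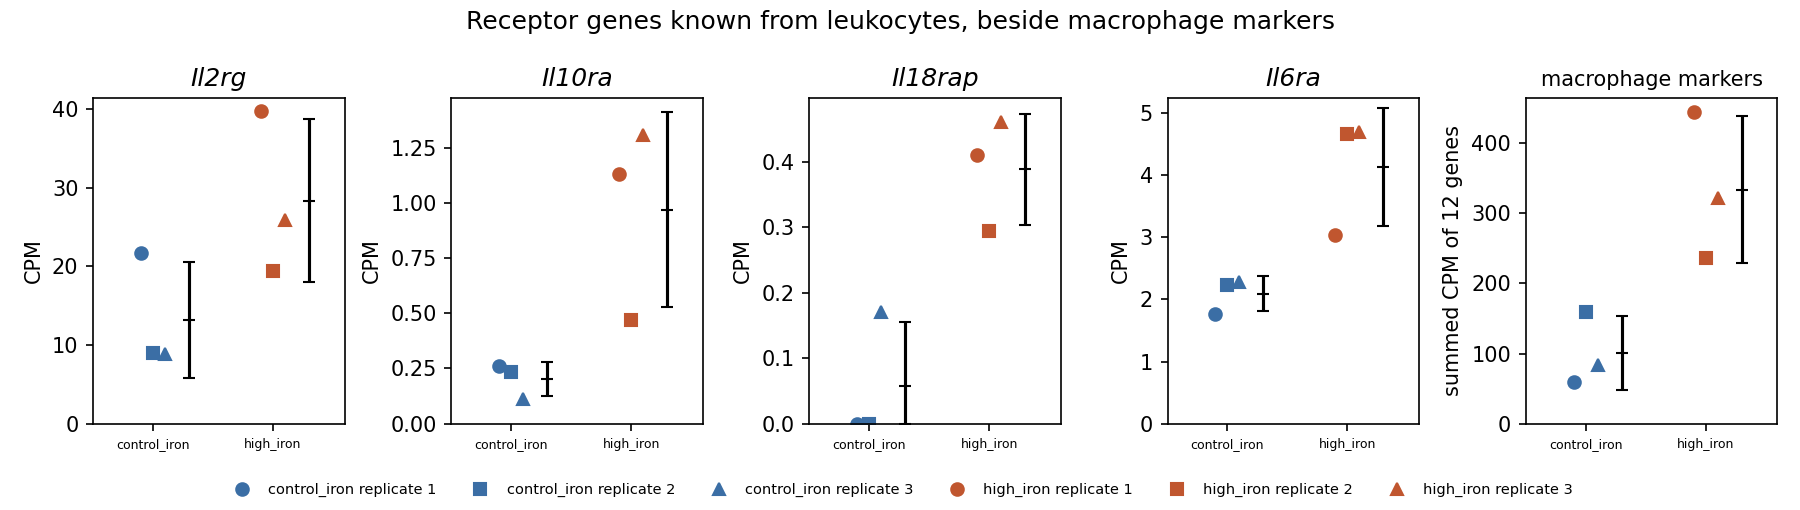
Level in CPM (y axes, from 0) of Il2rg, Il10ra, Il18rap and Il6ra, and the summed CPM of 12 macrophage markers, by library; symbols mark replicates and bars show mean ± SD, with the lower bar ended at 0. The macrophage sum is 58.9 to 159 CPM in control_iron and 236 to 444 CPM in high_iron libraries, while Il2rg overlaps between the diets.

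Il1r1, the signalling receptor for IL-1, measured 140, 77.8 and 96.8 CPM in control_iron and 95.6, 84.1 and 96.6 CPM in high_iron replicates 1 to 3. Control_iron replicate 1 was the highest, and the others lay between 77.8 and 96.8 CPM. The log2 fold change was -0.15 ± 0.20 (SE; 95% interval from -0.60 to 0.30), and it was 0.08 without control_iron replicate 1. Il1rap, the accessory chain that IL-1 and IL-33 receptors need for signalling, measured 7.49 ± 1.18 and 6.12 ± 0.687 CPM (SD, n = 3). Per length it stood at 0.810 RPKM against 19.5 RPKM for Il1r1.

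Il1r1 lies in a row of 6 family genes on chromosome 1 (GRCm38, plus strand, 40074079 to 40551705), in the order Il1r2, Il1r1, Il1rl2, Il1rl1, Il18r1 and Il18rap. Il1r1 was the expressed gene of that row. Il1r2, the decoy for IL-1, reached at most 0.295 CPM and Il1rl1, the receptor for IL-33, at most 0.236 CPM, in high_iron replicate 2, with no read in the other libraries. The highest value of the other members of the row was 0.461 CPM. Il1rapl1 reached at most 0.114 CPM and Il1rapl2 was listed at 0. Other neighbours split in the same way: Il17rc was expressed and Il17re, 0.669 kb away, reached at most 0.156 CPM, while Il4ra was expressed and Il21r, 24.0 kb away, was not.

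Il17ra, the chain shared by IL-17 receptors, measured 5.80 ± 3.27 and 5.59 ± 0.877 CPM (SD, n = 3). Il17rc, which pairs with it to bind IL-17A and IL-17F, was more abundant per length, at 14.1 RPKM against 1.44 RPKM. Il17rc measured 40.3 ± 4.96 and 40.1 ± 10.2 CPM. Il17rd, a family member known to modulate growth factor and IL-17 signals, measured 5.11 ± 2.19 and 3.51 ± 1.47 CPM. Their log2 fold changes were 0.05, -0.03 and -0.44, and none passed the threshold. The sign for Il17ra turned with edgeR and DESeq2 (-0.05 each), and that for Il17rc with size factors of the DESeq2 type in edgeR (0.002). Il17rb reached at most 0.616 CPM.

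Il10rb, shared by receptors for IL-10, IL-22 and interferon lambda, was the steadiest of the abundant genes, at 145, 173 and 157 CPM in control_iron and 158, 158 and 150 CPM in high_iron replicates 1 to 3. The log2 fold change was -0.02 ± 0.12 (SE; 95% interval from -0.30 to 0.26). Exons of Gm21970, on the same strand, cover 14.9% of its exonic length. The chains that give Il10rb its ligand were scarce: Il10ra is described above and Il22ra1 reached at most 0.114 CPM. Ifnlr1, the chain for interferon lambda and outside the symbol rule, was listed at 0, as was Il20ra. Il20rb measured 3.46 ± 1.30 and 2.32 ± 1.02 CPM (SD, n = 3) and missed the threshold. Il22ra2, a secreted decoy for IL-22, had 3 reads in high_iron replicate 1 and none elsewhere.

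Il3ra, the ligand-binding chain for IL-3, measured 43.4, 52.5 and 60.3 CPM in control_iron and 55.5, 51.3 and 59.7 CPM in high_iron libraries. The groups overlapped throughout, and the log2 fold change was 0.10 ± 0.16 (SE; 95% interval from -0.25 to 0.45). Il5ra, of the same family, reached at most 0.456 CPM. Of the chains for IL-12 and IL-23 none was expressed: Il12rb2 reached 1.99 CPM and Il12rb1 0.692 CPM at most, and Il23r was listed at 0. The chains for IL-27, Il27ra and Il6st, were grouped with the gp130 family above and were expressed. Exons of Serbp1 on the opposite strand cover 40.0% of the exonic length of Il12rb2, and the library kit does not mark strand.

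Most interleukin ligand genes were scarce in these cells. Of 45 listed ligands and antagonists, 11 were tested and none passed by limma, edgeR or DESeq2, beside 1.02%, 0.924% and 3.27% of all genes. An unadjusted p under 0.05 (limma) was found for 2 of them, beside 12.1% of all genes. Il13 had no read in any library, which allows up to 0.139 to 0.231 CPM, and Il4 measured 1.45 ± 0.639 and 1.57 ± 0.503 CPM (SD, n = 3). Il1a, a ligand of Il1r1, was the most abundant per length at 90.6 RPKM, with 193 ± 84.1 and 164 ± 66.0 CPM. Il18bp, which binds and blocks IL-18, measured 28.0 ± 5.52 and 28.1 ± 7.35 CPM. The genes with an unadjusted p under 0.05, Il33 and Il15, are named after their values were seen. Il33, the ligand of Il1rl1, measured 24.6, 42.3 and 33.1 CPM in control_iron and 21.6, 14.3 and 4.46 CPM in high_iron replicates 1 to 3 (limma adjusted p = 0.21). Il15 measured 13.3, 11.0 and 10.2 CPM against 8.62, 6.31 and 6.77 CPM (limma adjusted p = 0.27). Groups did not overlap for either, both lower in high_iron libraries, as for 8.44% of all genes tested.

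Of 18 tested cytokine receptor genes outside the symbol rule, none passed by limma or edgeR, and 6 had an unadjusted p under 0.05, beside 12.1% of all genes. DESeq2 called 1, which was Lifr, beside 3.27% of all genes. Groups did not overlap for 4 genes in the higher and 4 in the lower direction, beside 9.46% and 8.44% of all genes tested. Lifr, which joins gp130 in the LIF receptor, measured 1175, 1276 and 1040 CPM in control_iron and 1881, 2030 and 1748 CPM in high_iron replicates 1 to 3. Every high_iron library was higher, as for 9.46% of all genes tested. The log2 fold change of 0.70 ± 0.15 (SE) missed the threshold by limma (adjusted p = 0.071) and passed it by DESeq2 (adjusted p = 0.00014). Ifngr2, of the interferon gamma receptor, measured 150 ± 16.9 and 159 ± 16.3 CPM (SD, n = 3).

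Of 25 tested JAK-STAT and SOCS genes 1 rose and none fell, with a list median of 0.03, beside -0.003 and 1.02% called over all genes. An unadjusted p under 0.05 was found for 4 of them (12.1% of all genes), and DESeq2 called 2 (3.27% of all genes). Groups did not overlap for 5 of them, all higher in high_iron libraries, beside 9.46% of all genes tested. In 4 of the 6 fits with a library removed none passed. Without control_iron replicate 1 and without control_iron replicate 2, 1 gene passed, in the latter a gene other than Socs3. The gene called with all 6 libraries was Socs3, an inhibitor that gp130 signals are known to induce. It measured 42.3, 38.9 and 29.2 CPM in control_iron and 67.8, 73.7 and 74.6 CPM in high_iron replicates 1 to 3. Socs3 was higher in every high_iron library than in any control_iron library, as for 9.46% of all genes tested. Its log2 fold change was 0.97 ± 0.16 (SE; limma adjusted p = 0.031), and it passed in 1 of 6 fits with a library left out, that without control_iron replicate 1 (adjusted p = 0.016). In the others the adjusted p was 0.069 without control_iron replicate 2, 0.051 without control_iron replicate 3, and 0.084, 0.13 and 0.18 without high_iron replicates 1 to 3. Stat6, which the IL-4 and IL-13 receptors use, measured 226 ± 59.5 and 262 ± 52.7 CPM (SD, n = 3), and Stat3, which gp130 uses, 218 ± 51.7 and 243 ± 30.2 CPM, and neither passed.

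Of 29 tested genes of IL-1 and IL-17 signalling none passed by limma, edgeR or DESeq2, beside 1.02%, 0.924% and 3.27% of all genes. An unadjusted p under 0.05 (limma) was found for 2 of the 29, beside 12.1% of all genes. The list median was 0.03. Myd88, the adaptor of IL-1 receptors, measured 44.2 ± 2.45 and 42.3 ± 4.70 CPM (SD, n = 3). Nfkbia, an inhibitor that NF-kappa-B itself induces, measured 380 ± 49.9 and 354 ± 5.45 CPM, and Rela, a subunit of NF-kappa-B, 210 ± 26.8 and 189 ± 3.93 CPM.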

How the data were processed

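RNA was taken from sorted liver endothelial cells, 3 biological replicates per diet, and turned into libraries with a SMARTer Ultra Low Input kit, per the labels' protocols. STAR, HTSeq, edgeR and the build mm10 are named in the submitters' processing notes, with no role or version. How HTSeq was set is not given in the sources used here. As their normalized signal the authors deposited values named CPM, reads per gene over a scaled library size, and RPKM values, which equal 1000 × CPM / gene length. All 114253 values above 0 were whole multiples of 1 read within 0.001 read (100%), so reads were recovered.

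Groups were compared on log2(CPM + 1) with limma 3.58.1 (R 4.3.3), group as the only term, with an intensity trend, two-sided. The 12980 genes tested reached 1 CPM in 3 or more of 6 libraries, with p adjusted by Benjamini-Hochberg (threshold 0.05). On recovered reads, edgeR 4.0.16 (quasi-likelihood) called 120 genes and DESeq2 1.42.0 called 424. Alternatives were pseudocounts of 0.1 and 0.5, other filters, no trend, other scaling, a replicate block and leaving out each library. The fits were also run on simulated reads to check the code, and no result here rests on that run.

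The genes and lists were chosen with earlier results of these data known. Named with the value in every library were genes called, with an unadjusted p under 0.05 or groups that do not overlap, and the 6 most abundant per length. Chains of a receptor for the same cytokine as a called gene were named so too. Context lists gave up to 3 called genes, or the 2 most abundant where none was called, and Stat6, Stat3, Myd88 and Socs3. Positions and overlaps come from GENCODE M21 (GRCm38), sequences from RefSeq (GRCm38.p6).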

Additional observations from a re-analysis of the deposited data

How the results depend on the processing

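Il13ra2 was called lower under all 16 alternatives, with log2 fold changes from -1.56 to -1.31 and adjusted p from 1.4e-11 to 0.041, the highest without high_iron replicate 3. The count of interleukin receptor genes called was 1, and with 1 library left out it ran from 1 to 2 (0 to 1 higher, 1 to 1 lower): Il2rg was added without control_iron replicate 1, and its adjusted p reached 0.57 without another library. With the replicate number as a block, 2 were called, 1 of them higher, again Il2rg (1.10, adjusted p = 0.0051). Same-numbered libraries shared deviations with correlations of 0.13, 0.32 and 0.06, so the numbers were not taken to pair the samples; not every library correlated best with its own number. The ratio of Il13ra2 to Il13ra1 in high_iron over that in control_iron libraries was 0.352, and 0.330 to 0.377 with 1 library left out.

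Over all genes, 133 were called (108 higher, 25 lower). The counts were 34 (30, 4) without a filter, 74 (64, 10) without the trend, 424 (328, 96) with DESeq2, 402 (319, 83) with the replicate block, and 27 to 183 (23 to 149, 4 to 34) with 1 library left out. The cause was not tested.

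Signs turned for genes that passed in no fit. Il17ra was at -0.052 with edgeR, -0.047 with DESeq2 and -0.043 with the other size factors, and Il17rc at 0.0016 with the last. With 1 library left out, log2 fold changes ran from -0.228 to 0.416 for Il17ra, -0.206 to 0.157 for Il17rc, -0.0385 to 0.108 for Il13ra1, -0.082 to 0.045 for Il10rb, -0.0213 to 0.212 for Il3ra and -0.339 to 0.0822 for Il1r1. Genes with few reads, Il6ra, Il10ra and Il18rap among them, are limited by depth.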
